A study of Mus musculus with 6 samples.

Results

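The Hox genes encode homeodomain transcription factors that lie in 4 clusters, Hoxa on chromosome 6, Hoxb on 11, Hoxc on 15 and Hoxd on 2. The members here are all genes whose symbol is Hox, a cluster letter and a number and which 1 probe set carried alone, 37 of the 19752 genes measured in dystrophic mouse muscle. The anti-CD25 group held 3 arrays of skeletal muscle from mdx mice given PC61, a monoclonal antibody against CD25, which is part of the interleukin-2 receptor, and the other group held 3 arrays of muscle from mdx mice given rat IgG. Both groups carry the mdx background, which lacks dystrophin, so no muscle free of the disease was compared. Each antibody was given by 2 intraperitoneal injections, on days 17 and 20 of age, with dissection 7 days after the later one. Dissection thus fell on day 27, while an age of 6 weeks, or 42 days, stands in the labels. The labels name the tissue only as skeletal muscle, so which muscle, or which limb, was taken is not stated, and neither is whether the replicates are separate animals. P-values therefore measure the spread between these arrays, which may be partly technical.

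Hox genes are switched on in the embryo in the order in which they lie in their cluster, low numbers towards the head and high numbers towards the tail and the tip of the limb. Genes with the same number in different clusters are paralogues, which overlap in function. Adult stromal cells, satellite cells and fibres keep part of the code of the body region they come from, which is why a muscle's Hox genes reflect its position. Hox proteins bind DNA together with Pbx and Meis cofactors, and Polycomb and Trithorax proteins hold the clusters silent or active after the embryonic signals have gone.

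Labelled tissue and array quality were checked before the members. All 10 fibre markers, such as Ckm and Acta1, lay above the array median on every array, and the 3 skin markers lay below it on every array. Of the 4 cartilage and tendon markers, 3 lay above it on every array and 1 below. Of the 3 heart markers, 1 crossed it and 2 lay below on every array. The labels call every animal male, but Xist, the RNA of the inactive X chromosome, lay at 11.77 to 11.94 log2 units on 4 arrays and at 5.49 on anti-CD25 3 and 5.48 on rat IgG 3. Kdm5d, a gene of the Y chromosome, lay at 4.62 to 5.09 on those 4 arrays and at 7.85 on anti-CD25 3 and 7.80 on rat IgG 3. The high-Xist arrays were 2 in each group and the others 1 in each group, and differences are also given within each kind. The lower quartile of intensity, a measure of the dim range, was 56.5 on anti-CD25 3 and 57.6 and 57.7 on rat IgG 1 and 2, against 51.2 to 51.9 on the other 3 arrays.

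A minority of the Hox genes lay in the upper part of the arrays. Each value was set against the median gene of its own array, which lay at 7.27 to 7.30 log2 units. Against that line 8 Hox genes, 21.6%, lay above it on all 6 arrays, whereas 46.9% of all 19752 genes did so. Another 23 members, 62.2%, lay below it on all 6 arrays, against 47% of all genes, and 6 members crossed it. The 8 genes were Hoxa4, Hoxa7, Hoxa9, Hoxa10, Hoxc6, Hoxc9, Hoxc10 and Hoxd8. All 8 have numbers from 4 to 10. Of the 21 measured members in that range, 8 lay above on all 6 arrays, 4 crossed the median and 9 lay below on all 6. None of the 7 measured members numbered 1 to 3 lay above on every array, though Hoxb1 and Hoxb3 crossed, and all 9 numbered 11 to 13 lay below on all 6. Paralogues numbered 4, 6, 7, 9 and 10 lay on both sides of the median. Hoxc6 and Hoxa7 lay above on all 6 arrays, and Hoxb6 and Hoxb7 below on all 6. Hoxa9 and Hoxc9 lay above on all 6 arrays and Hoxd9 on 5, while Hoxb9 lay below on all 6. Hoxa10 and Hoxc10 lay above on all 6 and Hoxd10 below on all 6. Hoxa4 lay above on all 6, and Hoxb4, Hoxc4 and Hoxd4 below. By array, 10, 11 and 9 members lay above the median on anti-CD25 1, 2 and 3, against 12, 14 and 10 on rat IgG 1, 2 and 3. Probe sets differ in how strongly they bind, so a position against the median is a property of gene and probe set together and does not order the genes by amount of RNA. Signal below the median may also hold little but background.

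**Figure D1:**
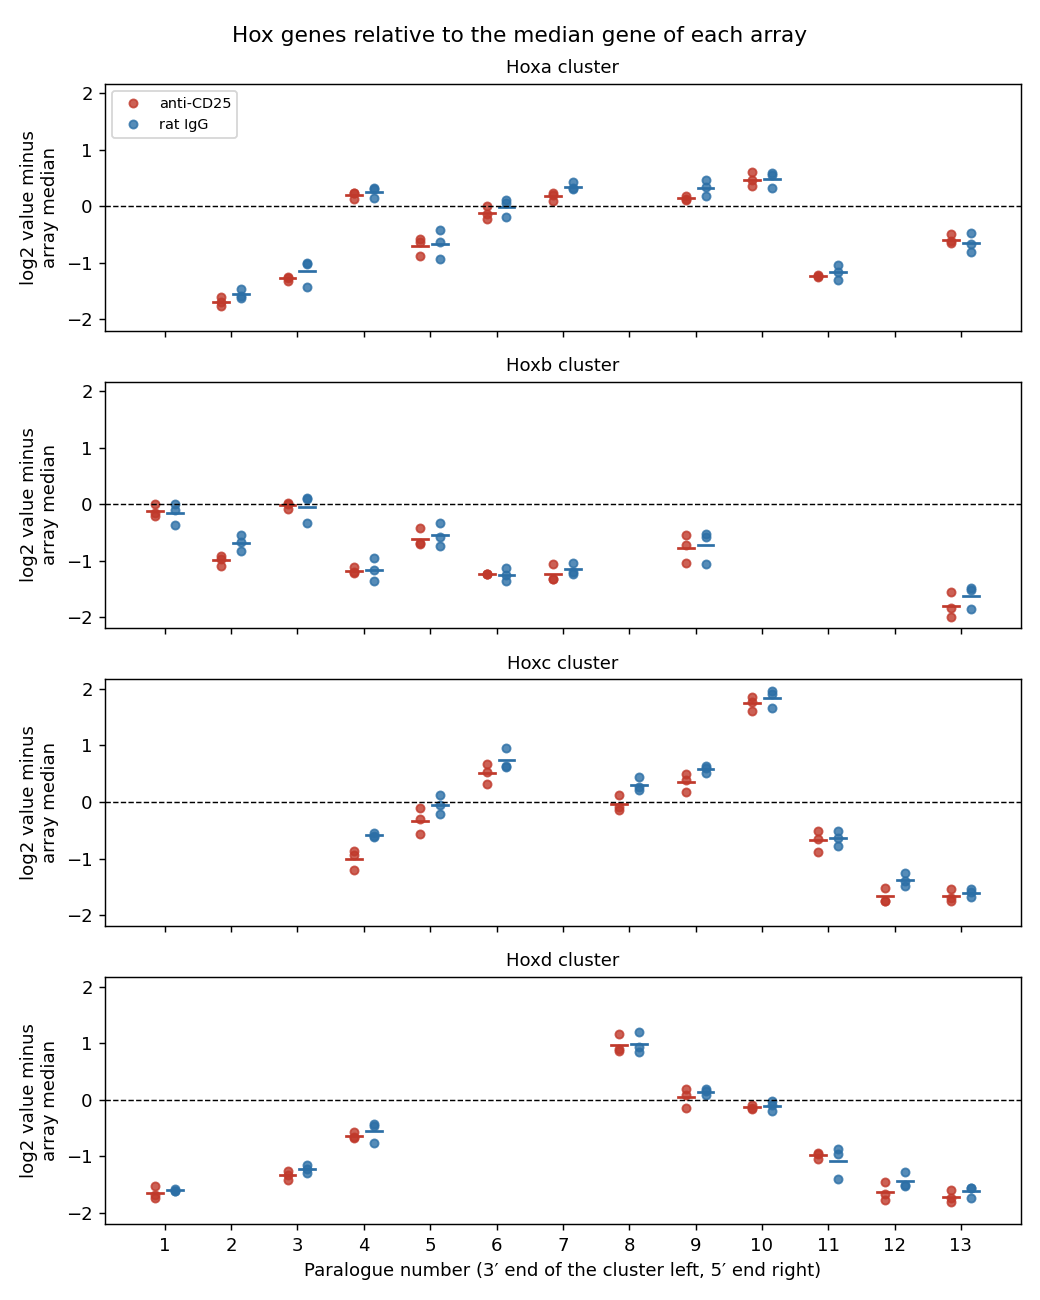
Log2 value minus the median gene of the same array (vertical axis) for the 37 Hox genes by paralogue number, 1 panel per cluster; points are arrays (anti-CD25 red, left; rat IgG blue, right) and bars are group means. No Hoxb gene lies above the dashed line on all 6 arrays, while 4 Hoxa, 3 Hoxc and 1 Hoxd gene do.

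The Hoxc cluster held the member farthest above the median. Hoxc10, which is active in the embryonic hindlimb and lumbar region, measured 9.03, 9.15 and 8.88 log2 units on the anti-CD25 arrays and 8.96, 9.25 and 9.18 on the rat IgG arrays. These values fall between percentiles 78.8 and 84.4 of all genes on their arrays, and the groups overlap. Hoxc6, active around the forelimb and upper thorax of the embryo, measured 7.80, 7.96 and 7.60 with anti-CD25 and 8.26, 7.92 and 7.90 with rat IgG. All 6 values exceed the median, with anti-CD25 2 inside the rat IgG range. Hoxc9, which helps to set thoracic identity, measured 7.66, 7.79 and 7.45 with anti-CD25 and 7.81, 7.92 and 7.87 with rat IgG, and every anti-CD25 value lies below every rat IgG value.

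In the Hoxa cluster, Hoxa10, a patterning gene of the lumbar spine and the upper hindlimb, measured 7.73, 7.88 and 7.63 with anti-CD25 and 7.88, 7.83 and 7.59 with rat IgG. The groups overlap. Hoxa9, a regulator of the trunk, limb and blood stem cells, measured 7.38, 7.46 and 7.40 with anti-CD25 and 7.76, 7.61 and 7.45 with rat IgG, where rat IgG 3 falls among the anti-CD25 values. Hoxa7, a gene of the trunk, measured 7.47, 7.53 and 7.36 with anti-CD25 and 7.59, 7.60 and 7.70 with rat IgG, with no overlap. Hoxa4, of the neck region, measured 7.40, 7.52 and 7.52 with anti-CD25 and 7.62, 7.58 and 7.42 with rat IgG. Its groups overlap. In the Hoxd cluster, Hoxd8 measured 8.14, 8.45 and 8.18 with anti-CD25 and 8.50, 8.14 and 8.21 with rat IgG, which are nearly the same range.

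The members nearest to the line show how narrow the division is. Just above it in the mean of 6 arrays were Hoxc8, a thoracic gene, and Hoxd9, a gene of the limb and lower trunk. Hoxc8 measured 7.13, 7.41 and 7.18 with anti-CD25, a mean 0.035 log2 units under the array median, and 7.50, 7.72 and 7.54 with rat IgG, a mean 0.30 above it. Hoxd9 measured 7.35, 7.49 and 7.13 with anti-CD25 and 7.38, 7.47 and 7.43 with rat IgG, so only anti-CD25 3 falls under the line. Just below it were Hoxb3, a gene of the hindbrain and neck, at 7.18, 7.29 and 7.29 with anti-CD25 and 7.40, 7.36 and 6.94 with rat IgG, and Hoxa6 at 7.28, 7.14 and 7.06 with anti-CD25 and 7.35, 7.39 and 7.09 with rat IgG. In both, the rat IgG arrays lie on either side of the line.

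The other members that crossed it were Hoxb1, a gene of the hindbrain, with 7.11, 7.08 and 7.27 with anti-CD25 and 7.19, 7.29 and 6.91 with rat IgG, and Hoxc5, which is described with its cluster. Each lay above the median on 1 array. Of the 23 members below it on all 6 arrays, Hoxd10, a gene of the lower limb and lumbar cord, came nearest, with 7.11, 7.19 and 7.13 with anti-CD25 and 7.09, 7.20 and 7.26 with rat IgG. The genes of the limb tip were all in this set. Hoxa13 measured 6.61, 6.67 and 6.78 with anti-CD25 and 6.63, 6.82 and 6.47 with rat IgG. Hoxd13 measured 5.68, 5.48 and 5.54 with anti-CD25 and 5.75, 5.72 and 5.55 with rat IgG. Both show overlap between the groups. The dimmest value of any member was 5.27, for Hoxb13 on anti-CD25 1, at percentile 18.0 of its array.

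The members are compared at their promoters in RefSeq windows, GRCm38.p6, of the 200 bases just before a gene start. Such windows were at hand for 21 of the 37 members, 23 windows in all. They are shown for the genes above the median on all 6 arrays that have one, each at its outermost start, and for Hoxc4, which differed most between the groups. Each runs 5′ to 3′ on the gene's own strand, and capitals mark CpG dinucleotides, which are dense in the CpG islands that Polycomb and Trithorax proteins occupy.
Hoxa7, chr6:52218574-52218773, minus strand: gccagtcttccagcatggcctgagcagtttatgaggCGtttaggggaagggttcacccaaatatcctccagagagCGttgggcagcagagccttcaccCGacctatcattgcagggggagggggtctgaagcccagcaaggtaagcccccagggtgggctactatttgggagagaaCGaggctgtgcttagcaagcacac
Hoxa9, chr6:52227371-52227570, minus strand: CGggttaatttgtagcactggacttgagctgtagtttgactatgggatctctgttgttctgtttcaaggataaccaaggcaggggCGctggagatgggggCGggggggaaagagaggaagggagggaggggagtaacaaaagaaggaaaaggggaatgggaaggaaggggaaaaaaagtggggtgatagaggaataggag
Hoxa10, chr6:52240855-52241054, minus strand: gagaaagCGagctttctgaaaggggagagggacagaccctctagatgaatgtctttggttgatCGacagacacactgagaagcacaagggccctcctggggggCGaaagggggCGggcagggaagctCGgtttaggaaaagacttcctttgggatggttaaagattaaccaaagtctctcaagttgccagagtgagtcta
Hoxd8, chr2:74704415-74704614, plus strand: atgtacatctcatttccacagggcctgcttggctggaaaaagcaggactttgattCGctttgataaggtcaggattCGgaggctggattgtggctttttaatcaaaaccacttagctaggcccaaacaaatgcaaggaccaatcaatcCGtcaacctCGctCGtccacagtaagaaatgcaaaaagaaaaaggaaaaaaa
Hoxc4, chr15:103034195-103034394, plus strand: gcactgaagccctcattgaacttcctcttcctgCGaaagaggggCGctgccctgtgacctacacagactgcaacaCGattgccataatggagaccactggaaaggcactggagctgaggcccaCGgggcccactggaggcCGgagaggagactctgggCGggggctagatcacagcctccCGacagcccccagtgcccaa
The window of Hoxa7 holds 4 CpG, that of Hoxa9 3, and those of Hoxa10 and Hoxd8 5 each, the same as the median of 5 over all 32851 windows. Hoxa10 has another start in the table, whose window holds 19. Hoxc4, whose window lies inside the span of its RefSeq gene, holds 7. The 23 Hox windows had a median of 9 CpG and a range of 2 to 33. A CpG content over 0.6 of that expected from the base composition was found in 1 of the 5 windows of members above the median on all 6 arrays, in 10 of the 15 windows of members below it on all 6, and in 35.1% of all windows. The motif TAATTA, the core of many homeodomain sites, lay in 2 of the 23 Hox windows against 3.73% of all windows. The Hox and Pbx motif TGATTNAT, sought on both strands, lay in 2 against 2.23%, and TATAAA, also on both strands, in 3 against 9.96%. The 2 windows with TAATTA belong to the same gene, Hoxd11. Of these, 1 also held TGATTNAT, and the motifs were counted separately. These are descriptions of sequence, given without a test.

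The design asks whether anti-CD25 changed the Hox genes of dystrophic muscle. No Hox gene passed the test, as limma with Benjamini-Hochberg adjustment over all 19752 genes called 0 of 37 members at an adjusted p of 0.05, and 0 genes in all (0%). The smallest adjusted p among the members was 0.750. At an unadjusted p under 0.05, 5 members (13.5%) were lower and 0 were higher, where 3.98% of all genes were lower and 2.3% higher. An unmoderated linear model also gave 5 members at that level, against 1054 of all 19752 genes, and 0 calls after adjustment. Without overlap between groups, 6 members (16.2%) were lower, against 7.46% of all genes, and 0 were higher, against 4.28%. In the mean, 32 of 37 (86.5%) were lower with anti-CD25, against 58.9% of all genes. The median difference was -0.089 log2 units, anti-CD25 minus rat IgG throughout, against -0.026 over all genes. Most members are dim, and of all genes with a mean below the array median 71.9% were lower, with a median of -0.065. The median 95% interval of a member, not adjusted for the number of genes, reached 0.24 to each side. Larger differences, such as -0.42 for Hoxc4, also did not pass the adjusted test, so changes of that size could be missed here. In bulk muscle, fewer cells that express a gene and less RNA per cell cannot be told apart.

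**Figure D2:**
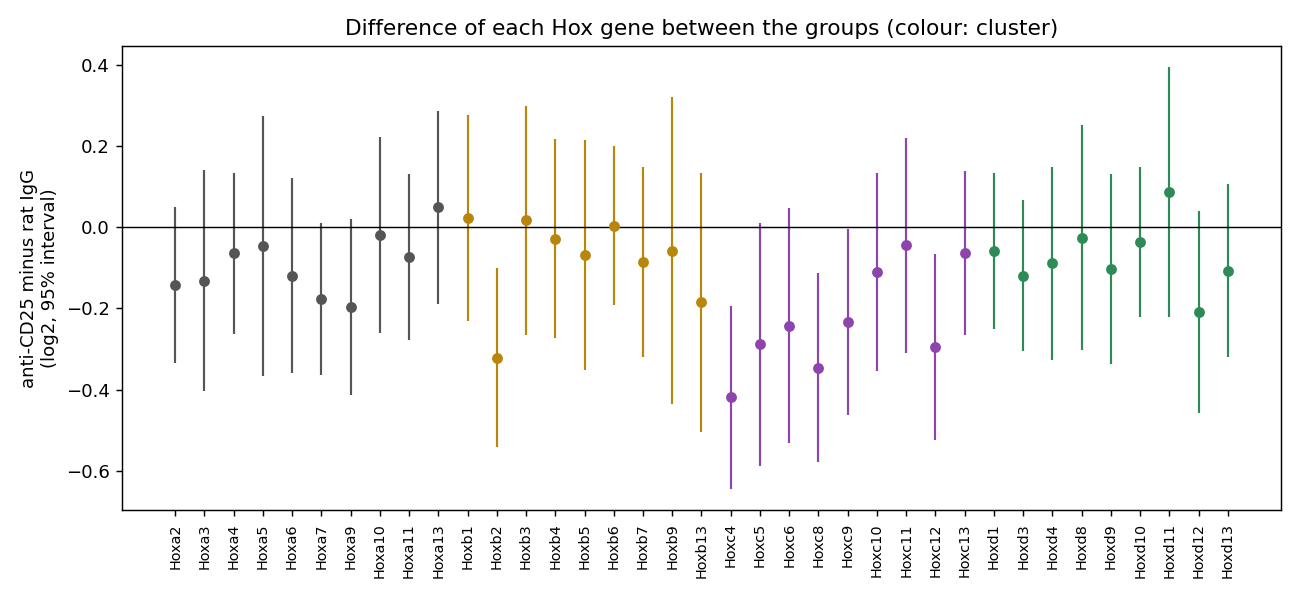
Difference of each Hox gene, anti-CD25 minus rat IgG in log2 units, with limma's 95% interval over 3 arrays per group; colour marks the cluster. All 9 Hoxc genes (purple) lie under 0, and none of the 37 passed adjusted over all genes.

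The lower means were uneven over the arrays, and rat IgG 1 and 2 lay above the other 4. The median of the 37 members, each relative to its mean of 6 arrays, was -0.066, -0.043 and -0.061 on anti-CD25 1, 2 and 3, and 0.11, 0.13 and -0.058 on rat IgG 1, 2 and 3. Rat IgG 3 thus lay with the anti-CD25 arrays. The median difference was -0.16 without rat IgG 3. It was -0.15 within the 4 arrays with high Xist, where 35 members were lower, and 0.034 between the other 2 arrays, where 17 were. The highest value of a member was on rat IgG 1 for 15 genes and on rat IgG 2 for 16. Those 2 arrays also had the highest lower quartiles. Their part in the result was not tested.

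Hoxc genes made up 4 of the 5 members with an unadjusted p under 0.05. All 9 measured Hoxc genes were lower with anti-CD25 in the mean, with a median of -0.24 and a range of -0.42 to -0.044. In 4 of the 9 the groups did not overlap and anti-CD25 was lower, against 7.46% of all genes. Hoxc4, a gene of the neck region, measured 6.32, 6.42 and 6.08 with anti-CD25 and 6.68, 6.73 and 6.67 with rat IgG. All anti-CD25 values fall below all rat IgG values, the difference was -0.42 (SE 0.10, limma unadjusted p = 0.00241, adjusted p = 0.750), and the levels lie under the array median. Hoxc8 differed by -0.35 (95% interval -0.58 to -0.11), with no overlap.

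Its neighbours in the cluster followed at smaller sizes. Hoxc9 differed by -0.23 (95% interval -0.46 to -0.0048) and Hoxc6 by -0.24 (95% interval -0.53 to 0.048). Hoxc5, named after its values were seen, measured 6.97, 7.17 and 6.70 with anti-CD25 and 7.09, 7.40 and 7.22 with rat IgG, a difference of -0.29 with overlap, and -0.17 without anti-CD25 3. Towards the tail end, Hoxc10 differed by -0.11, but by -0.040 without anti-CD25 3 and -0.20 without rat IgG 1. Hoxc11 differed by -0.044 and turned to 0.056 without anti-CD25 3, and to 0.024 when rat IgG 1 was left out. The dim Hoxc12, also singled out after its values were seen, differed by -0.30 without overlap. Hoxc11 to Hoxc13 are genes of the lower trunk and limb tip and lay below the median throughout.

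Among the 6 arrays, anti-CD25 3 held the lowest value of 6 of the 9 Hoxc genes, and no rat IgG array held the lowest value of any. The Hoxc median difference was -0.15 without anti-CD25 3 and -0.21 to -0.31 without any other single array. Without that array Hoxc6 differed by -0.15 and Hoxc9 by -0.14, and Hoxc6 by -0.13 without rat IgG 1. Within the 4 arrays with high Xist the cluster's median was -0.17, with 8 of 9 lower, and between the other 2 arrays it was -0.30, with 8 of 9 lower. A second quantile normalization left it at -0.24, with 8 of 9 lower. Members of a cluster lie side by side on 1 chromosome and are not independent.

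**Figure D3:**
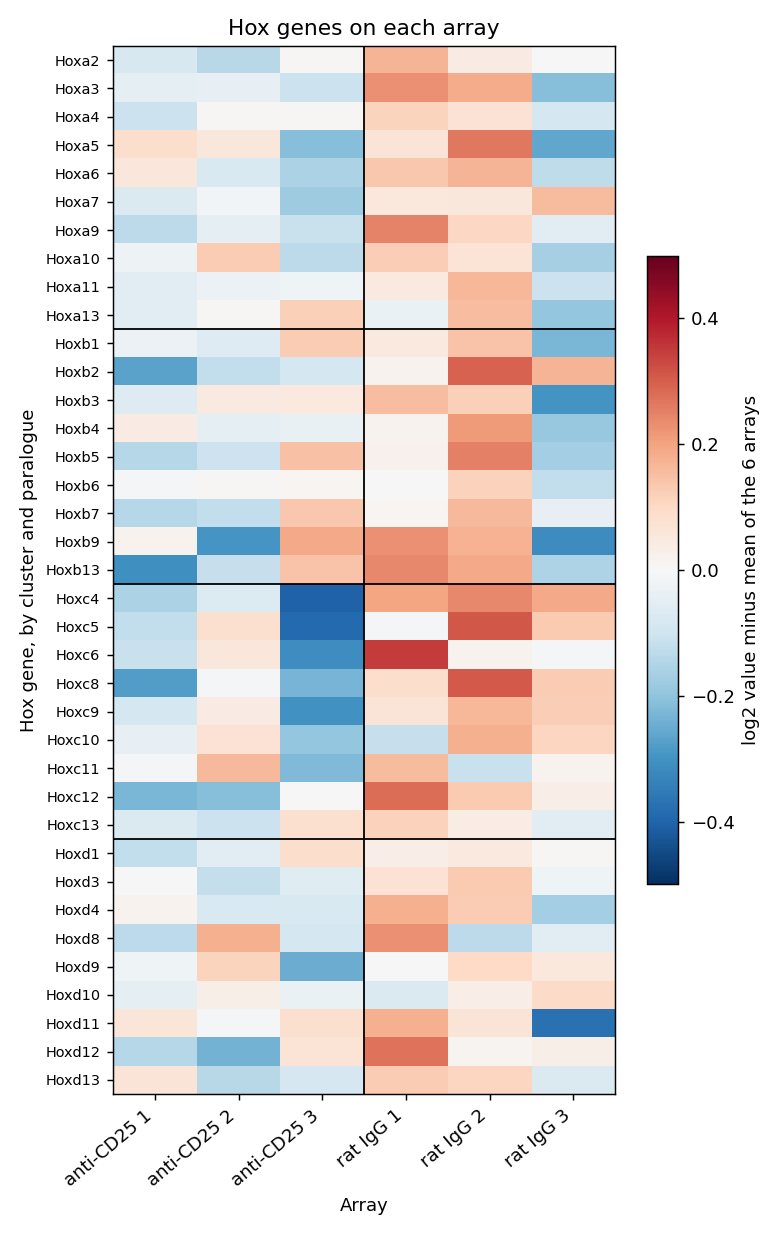
Log2 value of each Hox gene minus its mean over the 6 arrays (colour), with genes as rows by cluster and arrays as columns, anti-CD25 left of the vertical line. The Hoxc4 to Hoxc9 rows are lowest on anti-CD25 3 (Hoxc8 on anti-CD25 1), while most Hoxb rows are lowest on rat IgG 3.

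Markers of the cell types that could carry Hox RNA were set beside the Hoxc result. The 5 measured stromal markers, among them Pdgfra and Dcn, had 2 lower and 3 higher and a summed intensity of 18666 to 19679 with anti-CD25 and 19168 to 19652 with rat IgG. The 10 fibre markers summed to 100480 to 102383 with anti-CD25 and 100877 to 103719 with rat IgG. The 4 satellite cell markers, of which 2 lay above the median on all 6 arrays, summed to 898 to 981 with anti-CD25 and 832 to 1022 with rat IgG. These ranges overlap between groups. Of the satellite cell markers, Pax7, at -0.14, and Calcr, at -0.16, were lower with anti-CD25 without overlap, and Vcam1, at 0.16, and Myf5, at 0.058, were higher with overlap. All 5 macrophage markers were higher with anti-CD25, with sums of 10309 to 14473 against 8525 to 10901 with rat IgG. These sums overlap too, 3 of the 5 were higher at an unadjusted p under 0.05, against 2.3% of all genes, and none passed the test. No defining marker was at 0, but RMA values stay above 0, so this does not show that a marker was detected. The part of any of these cell types in the Hoxc values was not tested.

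In the Hoxb cluster the low values lay mostly on rat IgG 3. None of its 9 measured genes lay above the median on all 6 arrays, 6 were lower and 3 higher with anti-CD25, and the median was -0.057, turning to 0.040 without rat IgG 2. Of the 9, 6 had their lowest value on rat IgG 3. Hoxb2, a gene of the hindbrain, was the exception by size. It measured 6.17, 6.32 and 6.35 with anti-CD25 and 6.46, 6.74 and 6.61 with rat IgG, without overlap, a difference of -0.32 (95% interval -0.54 to -0.10). The Hoxb median was -0.22 within the 4 arrays with high Xist, with 9 of 9 lower, and 0.30 between the other 2, with 1 of 9 lower. Tested as an interaction over all genes by limma, 0 Hox genes passed (0.0405% of all genes did), and 7 (18.9%) had an unadjusted p under 0.05, near the 19.4% of all genes. Of these 7, 6 were Hoxb genes, out of 9 measured, and the other was Hoxd11. The low-Xist side of this test is 1 array per group, whose spread is taken from the other 4 arrays.

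Dim Hox genes were high on the arrays with a high lower quartile about as often as other dim genes. Anti-CD25 3, rat IgG 1 and rat IgG 2, the 3 arrays with the higher lower quartile, all lay above the other 3 arrays in 9 of the 23 members below the median on every array (39.1%), and in 33.3% of all genes with a mean below the median. Among the 8 members above the median on every array, 0 showed this pattern, as did 3.21% of all genes with a mean above it. The 23 dim members had a median difference of -0.073, and -0.032 after a second quantile normalization. Of these members 20 (87.0%) were lower with anti-CD25, against 71.9% of all genes with a mean below the array median. Those genes had a median of -0.065, and -0.0069 after that normalization. The 8 brighter members were all lower with anti-CD25, with a median of -0.14, and -0.15 after that normalization. Of all genes with a mean above the array median 45.9% were lower, with a median of 0.011, and -0.0068 after that normalization. Within the high-Xist arrays 8 of these 8 members and 21 of the 23 dim ones were lower. Between the low-Xist pair 6 of the 8 and 7 of the 23 were. The groups did not overlap in 2 of the 8, against 7.46% of all genes lower in that way.

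No Hoxa or Hoxd gene had an unadjusted p under 0.05. Hoxa had 9 of 10 members lower and Hoxd 8 of 9, where 58.9% of all genes were lower. The Hoxa median was -0.096, which ran from -0.16 without rat IgG 3 to -0.053 without rat IgG 2, and the Hoxd median was -0.089. Within the high-Xist arrays the Hoxa median was -0.15, with 10 of 10 lower, and between the low-Xist pair 0.039, with 3 of 10 lower. For Hoxd these medians were -0.13, with 8 of 9 lower, and -0.012, with 5 of 9 lower. Hoxa9 differed by -0.20 (95% interval -0.41 to 0.021) and by -0.12 without rat IgG 1. Hoxa7 differed by -0.18 (95% interval -0.36 to 0.012), although its groups did not overlap. Hoxa4 differed by -0.063, but by -0.12 when rat IgG 3 was left out, -0.024 when rat IgG 1 was and -0.025 when anti-CD25 1 was. Hoxa6 differed by -0.12, but by -0.21 when rat IgG 3 was left out, -0.063 when rat IgG 2 was and -0.069 when anti-CD25 3 was. Hoxd9 differed by -0.10, but by -0.0059 without anti-CD25 3 and -0.19 without anti-CD25 2. Hoxa10, at -0.018, and Hoxd8, at -0.026, turned sign when single arrays were left out. Hoxd11 had the highest difference of all members, 0.088, with 95% bounds of -0.22 and 0.40, but -0.077 without rat IgG 3 and 0.20 without rat IgG 1.

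Genes that mark fore- and hindlimb were read beside the Hox genes. Tbx4, a T-box factor of the hindlimb, measured 8.28, 8.20 and 8.06 with anti-CD25 and 8.41, 8.43 and 8.38 with rat IgG, above the array median on all 6 arrays. Tbx5, its counterpart in the forelimb and heart, measured 5.26, 5.24 and 5.34 with anti-CD25 and 5.53, 5.61 and 5.47 with rat IgG, below the median on all 6. Pitx1, which acts upstream of Tbx4 in the hindlimb, measured 6.87, 6.90 and 7.07 with anti-CD25 and 6.96, 7.32 and 6.92 with rat IgG, above the median only on rat IgG 2. The arrays thus hold Tbx4 and Hoxc10 above the median and Tbx5 below it in every sample. Hoxc6, active around the embryonic forelimb, also lay above it in every sample, and Pitx1 lay below it except on rat IgG 2. Which limb the muscle came from was not tested.

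The groups did not overlap for Tbx4, which differed by -0.23 (95% interval -0.42 to -0.032), or for Tbx5, at -0.26 (95% interval -0.44 to -0.077), and Pitx1 differed by -0.12. Of 45 listed limb and regional transcription factors, 40 were measured. Tbx15, a factor of muscle and limb mesenchyme, and Prrx1, a marker of limb mesenchyme, are among the 12 that lay above the median on every array, and 21 lay below it on every array. None of the 40 passed the test. In the mean 32 were lower and 8 higher, where 58.9% of all genes were lower. Of all genes with a mean below the array median 71.9% were lower. The median of the 40 was -0.11, against -0.026 over all genes. At an unadjusted p under 0.05, 5 were lower and 0 higher, against 3.98% and 2.3% of all genes. Between the low-Xist pair most of the 40 were higher with anti-CD25, such as Pax9 at 0.43, while others, such as Tbx4 at -0.32, were lower. Osr2, a connective tissue factor, measured 7.07, 6.99 and 7.01 with anti-CD25 and 7.41, 7.29 and 7.17 with rat IgG, without overlap and with a difference of -0.27 (SE 0.088).

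**Figure D4:**
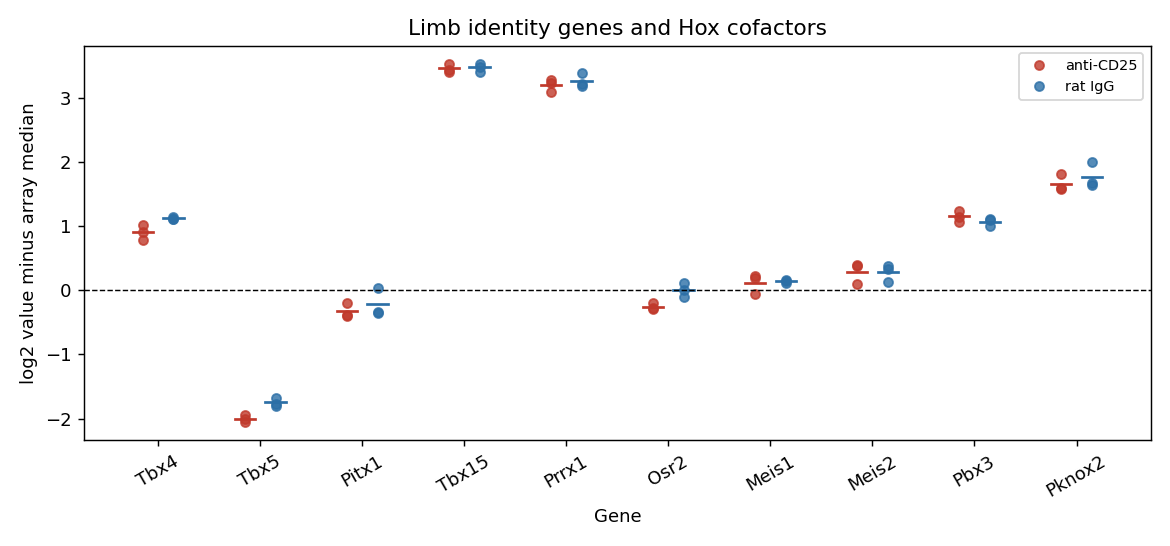
Log2 value minus the array median for limb identity genes and Hox cofactors; points are arrays (anti-CD25 red, left; rat IgG blue, right) and bars are group means. Tbx4 lies above and Tbx5 below the dashed line on all 6 arrays, and the anti-CD25 points of both lie under the rat IgG points.

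Cofactors of the Hox proteins differed little. Of 8 measured genes, 4 lay above the median on all 6 arrays, 4 were lower and 4 higher with anti-CD25, 0 passed the test and 0 had an unadjusted p under 0.05 (6.28% of all genes). Meis1 measured 7.46, 7.50 and 7.21 with anti-CD25 and 7.41, 7.45 and 7.42 with rat IgG, with overlap. Meis2 differed by 0.0018 (95% interval -0.25 to 0.25) and Pbx3 by 0.078 (95% interval -0.11 to 0.27). The members with the smallest p were Meis3, at -0.13, and Pknox2, at -0.12. Meis3 ran from -0.25 without rat IgG 3 to -0.056 without rat IgG 2, and Pknox2 from -0.20 without anti-CD25 2 to -0.012 without rat IgG 2.

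Polycomb and Trithorax genes, which keep Hox clusters off or on, lay mostly above the median. Of 25 measured, 23 were above the median on all 6 arrays, 15 were higher and 10 lower with anti-CD25, and 0 passed, with a median of 0.020. This lies near all genes with a mean above the array median, of which 45.9% were lower, with a median of 0.011. Eed, a core subunit of the repressive PRC2 complex, measured 8.64, 8.50 and 8.48 with anti-CD25 and 8.36, 8.09 and 8.46 with rat IgG. Its groups did not overlap, though anti-CD25 3 and rat IgG 3 lay close, and the difference was 0.23 (95% interval -0.013 to 0.48). It was 0.13 without rat IgG 2, 0.11 with the mean of its probe sets, 0.34 over the high-Xist arrays and 0.020 over the low-Xist pair. Pcgf2, a subunit of a PRC1 complex, differed by -0.19, Ezh1, a methyltransferase of PRC2, by 0.0023, and Kmt2a, the Trithorax methyltransferase that sustains Hox expression, by 0.018. Among 8 RNA genes inside the clusters, chosen after other values were seen, only Mir615 of Hoxc lay above the median on all 6 arrays, at 7.49, 7.40 and 7.51 with anti-CD25 and 7.70, 7.60 and 7.41 with rat IgG, and the other 7 lay below it on all 6. None of the 8 passed the test.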

How the data were processed

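RNA from 6 muscle samples was hybridised to 1 Affymetrix array each. The authors deposited intensity values made with RMA in Affymetrix Power Tools, per the submitters' processing notes; RMA corrects background, normalizes quantiles and summarises probe sets. No version of either is given in the sources used here. Values were linear and log2 was taken with no pseudocount. Of 24922 rows, 21425 had 1 gene symbol, and the brightest of several probe sets was used for a gene; every Hox gene had 1. RMA draws dim values together, which understates their differences, and the number of arrays limits precision.

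Groups follow the titles. Genes were tested with limma (version 3.58.1, R 4.3.3; lmFit and eBayes, two-sided) with group as the only term, Benjamini-Hochberg adjusted over 19752 genes, and the fit was tested on simulated data. Named genes are the Hox genes with a mean above the median, the 3 with the smallest p, the nearest 2 on each side of the median, the 2 with the smallest p of each list, and fixed genes. Alternatives changed normalization, variance model, array weights, filters, probe set choice, replicate block and arrays. The members and lists were chosen with earlier results of these data known. The numbers in the titles were not taken to pair arrays, since nothing in the labels says that they do. Correlations of same-numbered arrays' deviations from their group means were 0.030, -0.0067 and -0.17. Those of differently numbered arrays ran from -0.20 to 0.15. Deviations within a group sum to 0, so these correlations cannot decide the pairing.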

Additional observations from a re-analysis of the deposited data

How the results depend on the processing

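The count of Hox genes past the test stayed at 0 under every alternative tried, and so did those of the cofactor, limb and Polycomb lists. Over all genes 0 passed except without rat IgG 3, where 7 did (0 to 7 with single arrays left out), none of them a Hox gene. With the replicate block all these counts were 0 and the Hox median difference was -0.089; it changed no call. The Hox median difference ran from -0.16 to -0.063 with single arrays left out and was -0.13 with array weights. The 9 Hox genes above the median in both group means became 8 to 10 with single arrays left out, 10 with the median over all rows, 8 if every array had to lie above, 2 at the 60th and 1 at the 75th percentile, and 2 and 1 when genes under the 30th or 50th percentile were dropped, which raises the median itself. Of 260 values for 27 named genes outside the runs that left out 1 array, 5 turned sign: Hoxb3 to -0.064 with array weights and -0.15 in the 4 arrays with high Xist, Meis1 to 0.052 there, and Kmt2a to -0.011 and Ezh1 to -0.023 after a second quantile normalization. With single arrays left out, Hoxa10 ran from -0.11 to 0.043, Hoxd8 from -0.12 to 0.082, Hoxb3 from -0.13 to 0.10, Pitx1 from -0.19 to 0.0088, Meis1 from -0.090 to 0.053, Meis2 from -0.072 to 0.10, Kmt2a from -0.014 to 0.071 and Ezh1 from -0.023 to 0.030. The cause of these turns was not tested. Of the 14 named Hox genes 11 kept their sign throughout.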
